A study of Mus musculus with 8 samples.

Results

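The RNA of 10 genes of MHC class I antigen presentation was followed in 4T1 cells given acetate. The genes were chosen by name: the class I heavy chains H2-K1 and H2-D1, the light chain B2m, the peptide transporter subunits Tap1 and Tap2, tapasin (Tapbp), the induced proteasome subunits Psmb8, Psmb9 and Psmb10, and the transactivator Nlrc5. All 10 were among the 20189 genes of the deposited table. 4T1 is a line of mouse mammary carcinoma cells that forms lung metastases, and the comparison asked which transcripts change when cells are offered acetate, a source of acetyl-CoA. Wild-type cells were grown in DMEM with 10% FBS and received 5 mM acetate or water as vehicle for 48 h, and mRNA was then sequenced in 4 vehicle and 4 acetate libraries. A vehicle and an acetate library with the same number share an experiment code in their labels, and they are called a pair, or replicate 1 to 4, below.

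Nearly all nucleated cells show fragments of their own proteins on MHC class I molecules, which CD8 T cells read. Proteasomes cut proteins into peptides, the Tap1 and Tap2 transporter carries the peptides into the endoplasmic reticulum, and tapasin holds the transporter beside empty class I molecules made of a heavy chain and B2m. Interferon gamma raises most of these genes, Nlrc5 switches on class I genes, and tumour cells that lose class I molecules can escape CD8 T cells.

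Of the 10 genes, 7 lie on chromosome 17, where the mouse MHC is. Psmb9, Tap1, Psmb8 and Tap2 lie side by side there, in this order, in a stretch of 34.3 kb. The promoters are shown first because several of these genes share regulatory letters. Windows from 250 bases before to 50 bases after the RefSeq start (GRCm38.p6) were given for 8 of the 10 genes, the others being Tap2 and Nlrc5. Each was searched on both strands for the Y box bound by NF-Y (ATTGG), the core of the interferon-stimulated response element (ISRE, GAAANNGAAA), the gamma-activated site (GAS, TTCNNNGAA) and a kappa B site (GGGANNNCCC). Capitals mark the matches in the sequences below, written 5′ to 3′. The H2-K1 and B2m bases end at the base before the start. For H2-D1, Psmb8 and the Y box shared by the Tap1 and Psmb9 windows, 30 bases around the match are shown.
H2-K1, minus strand, chr17:34000348-34000527: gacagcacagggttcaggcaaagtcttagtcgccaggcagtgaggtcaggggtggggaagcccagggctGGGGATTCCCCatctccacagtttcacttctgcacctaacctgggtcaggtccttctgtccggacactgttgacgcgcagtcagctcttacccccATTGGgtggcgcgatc
B2m, plus strand, chr2:122147507-122147686: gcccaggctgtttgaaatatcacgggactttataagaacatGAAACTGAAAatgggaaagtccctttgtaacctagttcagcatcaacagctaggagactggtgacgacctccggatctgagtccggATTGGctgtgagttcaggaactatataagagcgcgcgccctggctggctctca
H2-D1, kappa B match, plus strand, chr17:35262913-35262942: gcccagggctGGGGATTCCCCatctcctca
Psmb8, GAS match, plus strand, chr17:34198087-34198116: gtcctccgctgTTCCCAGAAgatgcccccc
Tap1 and Psmb9, Y box match, plus strand, chr17:34187321-34187350: ggggctcggctttCCAATcagcggctgcgc

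The H2-K1 and H2-D1 windows both held a kappa B match followed by a Y box. Over the 100 bases from one to the other, 89 bases were identical (89.0%). The H2-K1 match began 111 bases before the start used above, and the H2-D1 match began 171 bases before its own. For a further RefSeq start of H2-K1 the match began at -125, and another Y box at -6. B2m held the only ISRE core among the 8 windows, and Psmb8 held the only GAS match. The starts of Tap1 and Psmb9 were 226 bases apart on opposite strands by RefSeq, so the bases between them lie upstream of both RefSeq starts. GENCODE starts H2-D1, Psmb8, Psmb9 and Tapbp earlier, and most of the 180 bases before the RefSeq start of each of these genes lie in an annotated UTR there. Y boxes were found in 6 of the 8 windows (H2-K1, H2-D1, B2m, Tap1, Tapbp and Psmb9) and in 37.2% of 15057 promoters of genes in the table. The Y box of the Tap1 window is the same 5 bases as that of the Psmb9 window, so it counts for both. The kappa B letters stood in 7.2% of those promoters, the GAS letters in 6.9% and the ISRE core in 3.1%. These windows describe the C57BL/6 reference, whereas 4T1 comes from the BALB/c strain, whose class I alleles differ. No binding or chromatin data were used here, so a match is only a match of letters.

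Libraries held 19.9 to 29.3 M reads over the genes of the table (M, mega), and values are normalised reads on a library total of 20000000. Changes are differences of log2(value + 1), acetate minus vehicle, fitted with limma over all 20189 genes with the pair as a block and adjusted over all genes (Benjamini-Hochberg, threshold 0.05). In this fit 7 of the 10 genes rose in acetate and 0 fell, beside 5.99% of all genes higher and 2.65% lower. EdgeR with the block called 7 higher and 1 lower (Psmb10), beside 1314 higher and 1086 lower of all 20189 genes. DESeq2 with the block called 6 higher and 0 lower, beside 653 and 473 of all genes. The median change over the 10 genes was 0.19, and over all genes it was 0.018. Of the 10, 9 were higher with acetate in 4 of 4 pairs, which held for 16.7% of all genes. These rises are seen within pairs only. Without the block, limma called 0 of the 10 genes and 0 of all genes, and 353 of all genes but 0 of the 10 had an unadjusted p under 0.05. EdgeR without the block also called 0, and 295 of all genes had an unadjusted p under 0.05. The vehicle and acetate values of each of the 10 genes overlapped. Each pair carries an experiment code of its own, and the study counts such replicates as independent experiments. The p-values rest on the differences over these 4 pairs, but not on their spread alone. Limma combines each gene's own spread with a trend of spread over all genes. In bulk RNA, fewer cells with a transcript and less of it per cell cannot be told apart.

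**Figure D1:**
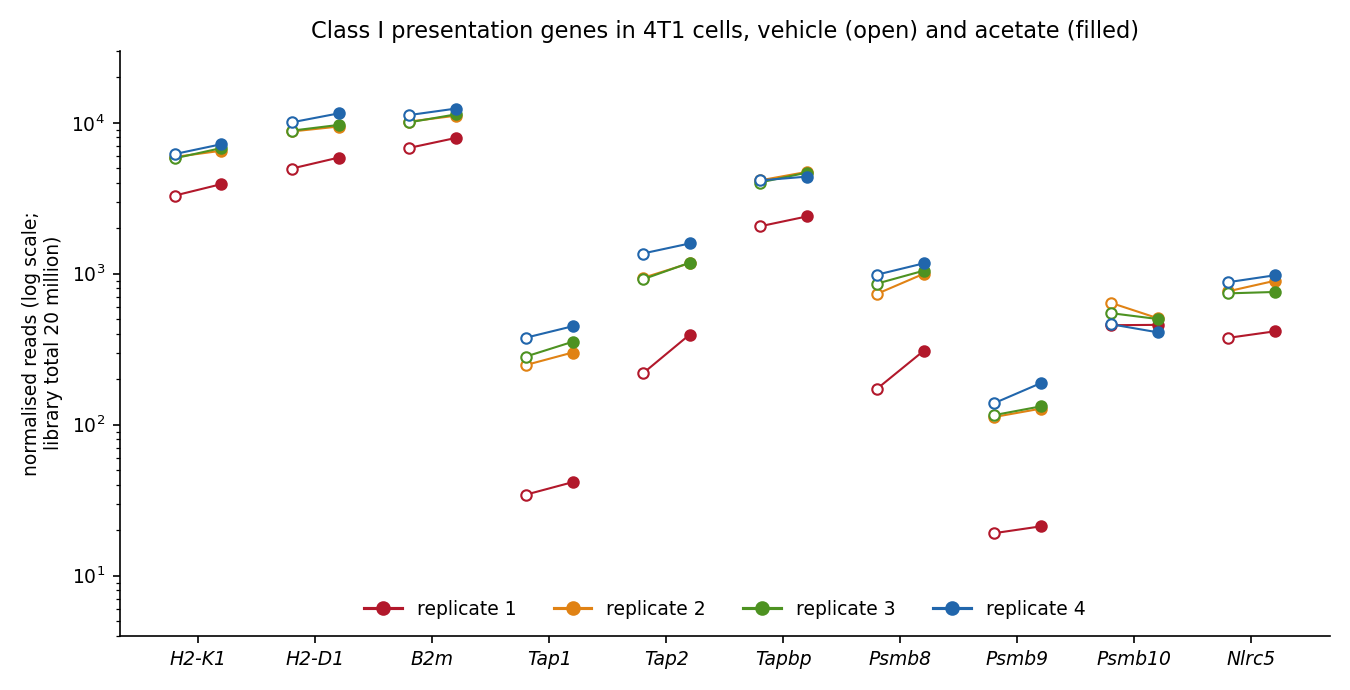
Normalised reads of the 10 genes in each library on a log axis, with open points for vehicle, filled points for acetate, a line joining each pair and a colour for each replicate. The lines of 9 genes slope upward in all 4 pairs, and replicate 1 lies below the other replicates for every gene but Psmb10, where it lies close to them.

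The heavy chains, which hold the peptide in their groove, both rose. H2-K1 (ENSMUSG00000061232, GRCm38 chromosome 17, 33996017 to 34000347, minus strand) had 3293, 5934, 5812 and 6206 normalised reads in vehicle replicates 1 to 4, and 3924, 6528, 6800 and 7212 in acetate. Each acetate library was above its own vehicle library, while the acetate library of replicate 1 lay below the vehicle libraries of the other replicates. Its log2 change was 0.21 ± 0.027 (SE, limma with the block, adjusted p 0.00125), or 15.5%. H2-D1 (ENSMUSG00000073411, chromosome 17, 35262730 to 35267499, plus strand) had 4972, 8754, 8863 and 10065 normalised reads in vehicle, and 5877, 9440, 9675 and 11533 in acetate. It rose by 0.17 ± 0.028 (SE, adjusted p 0.00432), or 12.4%, with changes in the pairs from 0.11 to 0.24. Of the 75-base windows in their annotated transcripts, 3.1% for H2-K1 and 5.4% for H2-D1 also occurred in other genes on the same strand. The other genes were mostly class I relatives of the Q and T regions, so a part of these counts is uncertain. The transcripts are those of the reference strain, whereas the cells come from BALB/c, whose class I alleles differ. The shares therefore do not give the size of the uncertainty, and the effect of strain on these counts was not tested.

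B2m, the light chain that every classical class I molecule needs, also rose. B2m (ENSMUSG00000060802, chromosome 2, 122147686 to 122153083, plus strand) had 6807, 10172, 10052 and 11237 normalised reads in vehicle, and 7927, 11132, 11355 and 12408 in acetate. The change was 0.17 ± 0.025 (SE, adjusted p 0.00254), or 12.3%, and lay between 0.13 and 0.22 in the pairs. B2m is on another chromosome than the heavy chains. It lies within the span of Patl2 on the opposite strand, which had at most 3.78 normalised reads in any library.

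Both transporter subunits rose, from very different levels. Tap1 (ENSMUSG00000037321, chromosome 17, 34187553 to 34197225, plus strand) had 34.4, 248, 283 and 377 normalised reads in vehicle, and 41.6, 301, 354 and 449 in acetate. Replicate 1 was far below the rest in both groups. The change of Tap1 was 0.28 ± 0.066 (SE, adjusted p 0.0228), and its pairs lay close together at 0.27, 0.28, 0.32 and 0.25. In pair 1, where Tap1 had as few as 45 reads, the counting error alone was 0.29 on the log2 scale, about as large as the change. Tap2 (ENSMUSG00000024339, chromosome 17, 34203527 to 34216321, plus strand) had 218, 938, 918 and 1361 normalised reads in vehicle, and 395, 1174, 1182 and 1586 in acetate. Tap2 rose by 0.44 ± 0.081 (SE, adjusted p 0.0068), or 35.6%. Its change in pair 1 was 0.85, against 0.32, 0.36 and 0.22 in pairs 2 to 4, and without pair 1 it was 0.30 ± 0.041 (SE, adjusted p 0.0016). Without strand in the counting, which is not stated, 8.27% of the Tap2 windows could be read from antisense genes and 2.4% of the Tap1 windows from Psmb9.

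Tapasin bridges the transporter and the empty class I molecule. Tapbp (ENSMUSG00000024308, chromosome 17, 33915899 to 33929292, plus strand) had 2060, 4149, 4020 and 4148 normalised reads in vehicle, and 2394, 4724, 4669 and 4396 in acetate. Its rise was 0.18 ± 0.030 (SE, adjusted p 0.00484), or 13.0%, and the smallest change was 0.084 in pair 4. The span of Tapbp overlaps Zbtb22 on the same strand and Gm19412 on the other, and 18.6% of its windows occur in other genes when strand is ignored. Zbtb22 moved the other way, with a change of -0.14 ± 0.039 (SE, adjusted p 0.0491).

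The 3 induced proteasome subunits did not move alike. Psmb8 (ENSMUSG00000024338, chromosome 17, 34197721 to 34201454, plus strand) had 173, 735, 860 and 985 normalised reads in vehicle, and 308, 998, 1047 and 1171 in acetate. It rose by 0.45 ± 0.079 (SE, adjusted p 0.00523), or 36.8%. As for Tap2, the change was larger in pair 1 (0.83) than in pairs 2 to 4 (0.44, 0.28 and 0.25), and it was 0.33 ± 0.047 (SE, adjusted p 0.00211) without pair 1. If strand was not used, 9.97% of the Psmb8 windows could be read from the antisense gene Gm20496. Psmb9 (ENSMUSG00000096727, chromosome 17, 34181987 to 34187764, minus strand) had 19.1, 112, 116 and 139 normalised reads in vehicle, and 21.2, 128, 132 and 188 in acetate. All 4 pairs were higher, and the change of 0.24 ± 0.105 (SE, adjusted p 0.202) did not pass. Its lowest library held 25 reads, which gives a counting error of 0.40 on the log2 scale in pair 1, and 3.44% of its windows could be read from Tap1 if strand was not used. Psmb10 (ENSMUSG00000031897, chromosome 8, 105935735 to 105938444, minus strand) had 456, 641, 548 and 463 normalised reads in vehicle, and 458, 507, 501 and 409 in acetate. It was lower in 3 of 4 pairs, with a change of -0.16 ± 0.057 (SE, adjusted p 0.116) that did not pass. Without pair 1 the change was -0.22 ± 0.056 (SE, adjusted p 0.0403), and with edgeR on the recovered reads it was -0.18 (adjusted p 0.0368), so in these fits Psmb10 was called lower.

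Nlrc5, a large gene on chromosome 8 whose product turns on class I promoters, was near the threshold. Nlrc5 (ENSMUSG00000074151, chromosome 8, 94434356 to 94527272, plus strand) had 376, 764, 741 and 878 normalised reads in vehicle, and 415, 897, 757 and 976 in acetate. All 4 pairs were higher, from 0.031 in pair 3 to 0.23 in pair 2. The change of 0.14 ± 0.043 (SE, adjusted p 0.0743) did not pass in all genes, and had an adjusted p of 0.0471 when only the 13292 genes with a mean of at least 10 units were fitted.

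**Figure D2:**
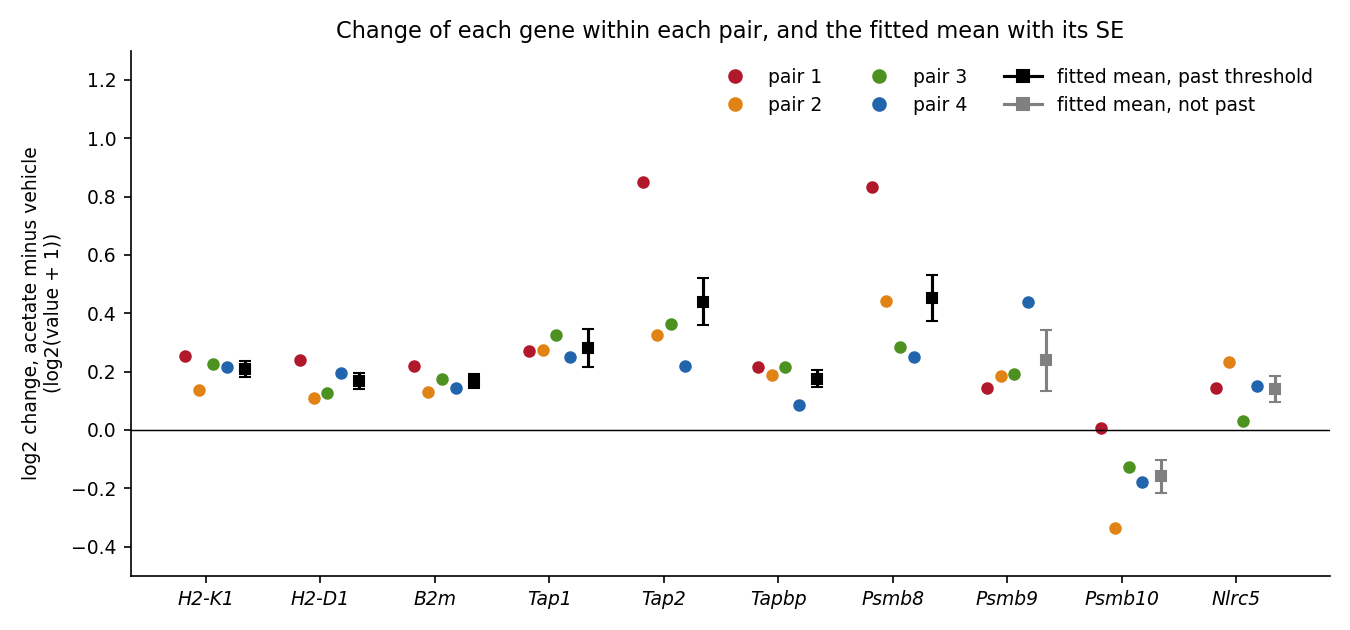
Log2 change of each gene from vehicle to acetate in pairs 1 to 4 (coloured points), and the fitted mean with its SE (squares, black where the adjusted p is below 0.05 and grey where it is not). Tap2 and Psmb8 stand highest in pair 1, at 0.85 and 0.83, and Psmb10 is the gene with a fitted mean below 0, at -0.16.

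The calls rested on different pairs to different degrees. H2-K1 and B2m passed whichever pair was left out. Without pair 1 the same 7 genes rose. Without pair 2, Tap1 did not pass (adjusted p 0.117). Without pair 3, 3 of the 10 genes rose (H2-K1, H2-D1 and B2m, beside 331 of all genes), and Tap1 (0.142), Tap2 (0.0795), Tapbp (0.071) and Psmb8 (0.0518) did not pass. Without pair 4, Tap1 (0.121) and H2-D1 (0.0555) did not pass. None of the 10 genes changed direction in any of these fits.

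Each induced subunit takes the place of a constitutive one in the proteasome core, and a ratio of both in a library is not moved by the library total. The constitutive subunits did not pass in the same fit, with log2 changes of 0.017 ± 0.050 for Psmb5, -0.020 ± 0.028 for Psmb6 and -0.038 ± 0.028 for Psmb7 (SE, adjusted p 0.896, 0.75 and 0.471). The log2 ratio of Psmb8 to Psmb5 was -2.12, 0.45, 0.54 and 1.14 in vehicle, and -1.41, 0.94, 0.72 and 1.50 in acetate. It was higher with acetate in 4 of 4 pairs, by 0.44 ± 0.23 (SD, n = 4). The ratio of Psmb9 to Psmb6 was also higher in 4 of 4 pairs, by 0.26 ± 0.14 on the log2 scale (SD, n = 4). The ratio of Psmb10 to Psmb7 was higher in 1 pair and lower in 3, with a mean difference of -0.12 ± 0.14 (SD, n = 4). No test was run on these ratios. Per length of exon, Psmb8 stood at 0.061 of the Psmb5 level in vehicle replicate 1 and between 0.36 and 0.59 in vehicle replicates 2 to 4, whereas Psmb9 stood between 0.0034 and 0.033 of the Psmb6 level in vehicle.

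**Figure D3:**
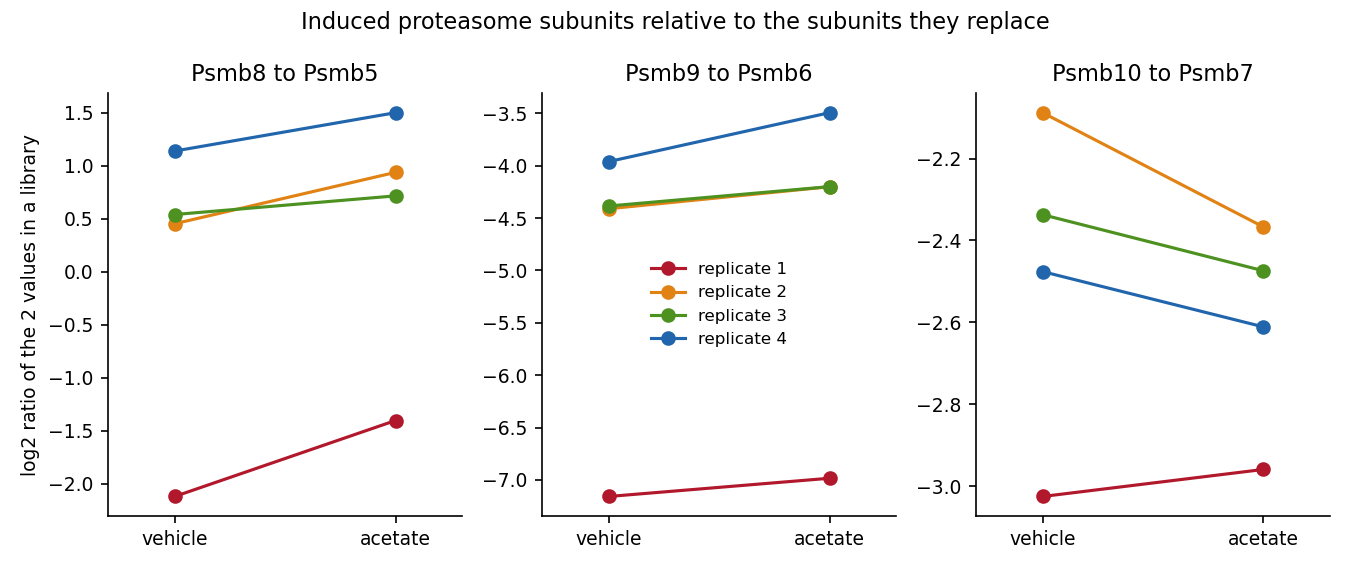
Log2 ratio of each induced proteasome subunit to the constitutive subunit it replaces in every library, with a line joining vehicle and acetate in each pair and a separate vertical scale in each panel. The ratios of Psmb8 and Psmb9 are higher with acetate in 4 of 4 pairs, and that of Psmb10 is lower in 3 of 4.

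In vehicle cells the 10 genes covered a wide range of levels per kb of exon. B2m stood highest, at 11124 ± 2227 normalised reads per kb (SD, n = 4), followed by H2-D1 at 3165 ± 857 and H2-K1 at 1808 ± 461. Tapbp had 991 ± 283 per kb. Next came Psmb10 (309 ± 51.0), Tap2 (227 ± 125) and Psmb8 (204 ± 106), whose ranges over the libraries overlapped. The lowest levels per kb were those of Nlrc5 (81.2 ± 25.7), Tap1 (43.0 ± 26.4) and Psmb9 (26.3 ± 14.4). The ranges of B2m and H2-D1 did not overlap, nor did those of Tapbp and Psmb10, and every other neighbouring pair in this order overlapped. The transporter subunits thus differed in level per kb, with Tap2 above Tap1 in each library. Lengths are the union of annotated exons, which is longer than any 1 transcript.

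Replicate number set more of the variation of these genes than acetate did. It held a median of 93.7% of the sum of squares over the 10 genes, and 92.2% over the 10840 genes with a mean above 64 units. Vehicle replicate 1 was the lowest vehicle library for all 10 genes, and acetate replicate 1 was the lowest acetate library for 9 of them. Tap1 was 8.8-fold lower in vehicle replicate 1 than in the mean of vehicle replicates 2 to 4. The corresponding ratio was 6.4 for Psmb9, 4.98 for Psmb8 and 4.91 for Tap2. These are the 4 adjacent genes of the 34.3 kb stretch. The 6 other genes lay between 1.21 (Psmb10) and 2.12 (Nlrc5). Over the 10840 genes above 64 units, 3.38% were more than 4-fold lower in vehicle replicate 1, and 12.5% more than 2-fold lower, as were 4 and 5 of the 10 genes.

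**Figure D4:**
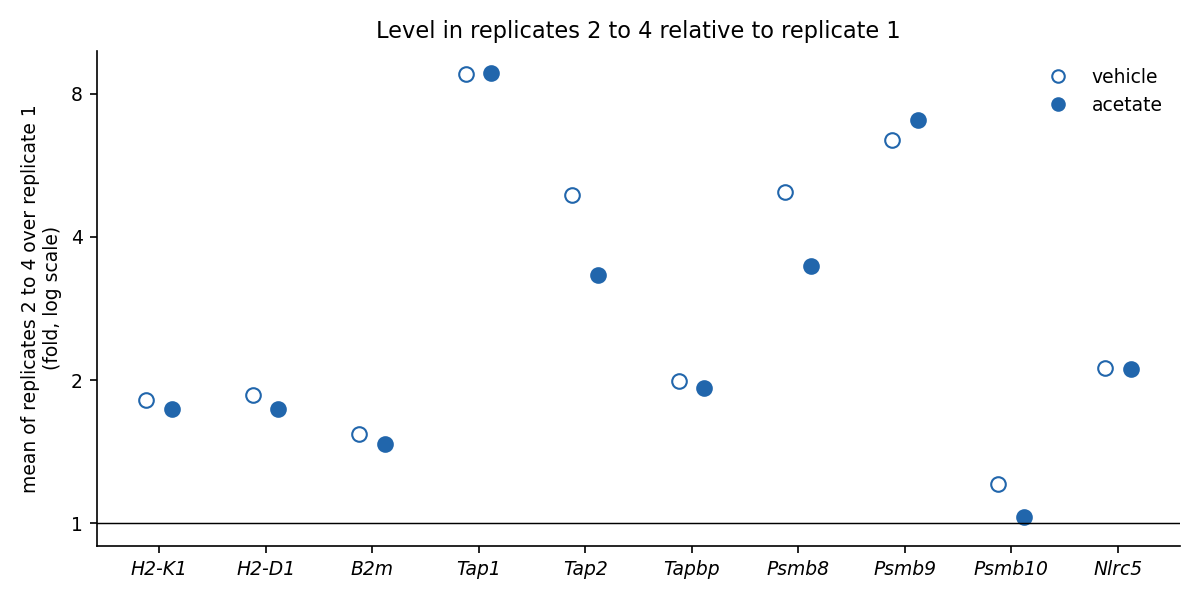
Mean of replicates 2 to 4 divided by replicate 1 for each gene on a log axis, with open points for vehicle and filled points for acetate. Tap1, Psmb9, Psmb8 and Tap2 lie between 3.33 and 8.84, and the other 6 genes between 1.03 and 2.12.

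The genes other than Psmb10 followed each other over the 8 libraries. The correlation of a gene's log2 values with the mean of the other genes was 0.981 to 0.992 for these, and 0.157 for Psmb10 (Pearson, 8 libraries, given as a description). The 8 points fall into replicate 1 and the rest, and they share pairs and library totals. Over the 6 libraries of replicates 2 to 4 it was 0.79 to 0.99 for 8 genes, 0.42 for Tapbp and -0.95 for Psmb10, which ran against the others there. Of 10820 other genes with a mean above 64 units, those whose pattern was most like the mean of the 10 genes were Lix1l (r = 0.9987), Gpm6b (0.9985), Fam114a1 (0.9984), Mndal (0.9983) and Pml (0.9982). Their r over the 6 libraries of replicates 2 to 4 was 0.95 to 0.986. These genes were picked over 8 libraries that include those 6 and both treatments, so neither this r nor their changes are separate support. Lix1l, the nearest, had 687, 1596, 1605 and 1912 normalised reads in vehicle, and 841, 1794, 1805 and 2086 in acetate. Its change was 0.19 ± 0.036 (SE, limma with the block, adjusted p 0.00783).

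The other genes of the pathway, 106 in 6 lists, were written from knowledge of their roles, and the table held 98. Of these, 16 rose and 3 fell (16.3% and 3.06%, beside 5.99% and 2.65% of all genes), with a median change of 0.059. The class I molecules of the Q, T and M regions and class I-like genes held the most rises. Of 15 measured, 6 rose (40.0%) and 0 fell, with a median of 0.26. With pairs 1 to 4 left out in turn, limma called 5, 3, 3 and 4 of the 15. It called 1662, 617, 409 and 539 of all genes. Mr1, which shows vitamin B metabolites to MAIT cells, had 49.6, 226, 215 and 414 normalised reads in vehicle, and 99.7, 317, 341 and 519 in acetate. Mr1 rose by 0.62 ± 0.096 (SE, adjusted p 0.00294). H2-Q7, a class Ib molecule of the Qa-2 family, rose by 0.52 ± 0.091 (SE, adjusted p 0.00543). H2-T23, which encodes Qa-1 and is read by NKG2A on natural killer cells, rose by 0.44 ± 0.048 (SE, adjusted p 0.000435). The remaining rises were those of H2-Q2, H2-T22 and H2-K2. Close relatives in these regions can share reads, with each other and with H2-K1 and H2-D1, so the split between them is uncertain.

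Among 17 measured genes of peptide loading and trimming, 3 rose (17.6%, beside 5.99% of all genes) and 1 fell, with a median of 0.023. Calr, a chaperone of the loading complex that also serves many other glycoproteins, rose by 0.20 ± 0.030 (SE, adjusted p 0.00246), and replicate 1 was the highest vehicle library for this gene. Pdia3, the disulfide isomerase bound to tapasin, rose by 0.11 ± 0.025 (SE, adjusted p 0.0226), and the cytosolic peptidase Npepps rose by 0.15 ± 0.030 (SE, adjusted p 0.0117). Erap1 trims peptides in the endoplasmic reticulum to the length that class I molecules take, and it was the gene that fell. It had 976, 1291, 1273 and 1197 normalised reads in vehicle, and 810, 1073, 1076 and 960 in acetate. The change was -0.27 ± 0.034 (SE, adjusted p 0.000878), lower in 4 of 4 pairs. Of 19 constitutive proteasome genes and activators, 0 passed in limma in either direction, and the median was 0.013. Of the 19, 5 had an unadjusted p under 0.05, as did 4520 of all 20189 genes in limma. EdgeR with the block called 2 of the 19 and 2400 of all genes, and DESeq2 called 0 and 1126.

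Transcription factors of class I genes were mostly not called. Of 23 measured, 2 rose (8.7%) and 2 fell (8.7%), with a median of 0.042. The shares over all genes were 5.99% and 2.65%. With pairs 1 to 4 left out in turn, limma called 4, 1, 1 and 2 of the 23. It called 1662, 617, 409 and 539 of all genes. Stat3 rose by 0.31 ± 0.036 (SE, adjusted p 0.000727) and Stat2, a part of the complex that binds interferon-stimulated response elements, by 0.24 ± 0.051 (SE, adjusted p 0.0148). Relb of the NF-kappa B family had a change of -0.26 ± 0.058 (SE, adjusted p 0.0187), and Atf1 of -0.14 ± 0.038 (SE, adjusted p 0.0473). Irf1 had a change of 0.097 ± 0.038 (SE, adjusted p 0.154). Rfx5, a subunit of the factor that recruits Nlrc5 to class I promoters, had a change of -0.023 ± 0.058 (SE, adjusted p 0.879). Ciita, the class II counterpart of Nlrc5, lay between 1.53 and 15.8 normalised reads in the 8 libraries, with a change of 0.077 ± 0.28 (SE, adjusted p 0.921).

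Of 13 genes of interferon receptors and their signalling, 2 rose (15.4%, beside 5.99% of all genes) and 0 fell, with a median of 0.077. With pairs 1 to 4 left out in turn, limma called 2, 1, 0 and 0 of the 13. It called 1662, 617, 409 and 539 of all genes. Usp18, a feedback inhibitor of type I interferon signalling, had 3.82, 30.1, 19.1 and 45.0 normalised reads in vehicle, and 13.3, 52.5, 46.2 and 61.8 in acetate. It rose by 1.01 ± 0.21 (SE, adjusted p 0.014), from few reads in replicate 1. Jak2, a kinase of the interferon gamma receptor among others, rose by 0.27 ± 0.045 (SE, adjusted p 0.00401). Of 11 measured ligands read by T cells and natural killer cells, 3 rose (27.3%) and 0 fell, with a median of 0.30. In the fits without pairs 1 to 4, limma called 3, 2, 1 and 1 of the 11. Lgals9, a ligand of Tim-3, rose by 0.57 ± 0.099 (SE, adjusted p 0.00525). Raet1e, a ligand of NKG2D, rose by 0.38 ± 0.10 (SE, adjusted p 0.0414), and Nectin2, a ligand of DNAM-1 and TIGIT, by 0.35 ± 0.060 (SE, adjusted p 0.00497). Without the block, limma called 0 of the 98 genes, and without pair 3 it called 6 of them against 19 in all pairs.

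**Figure D5:**
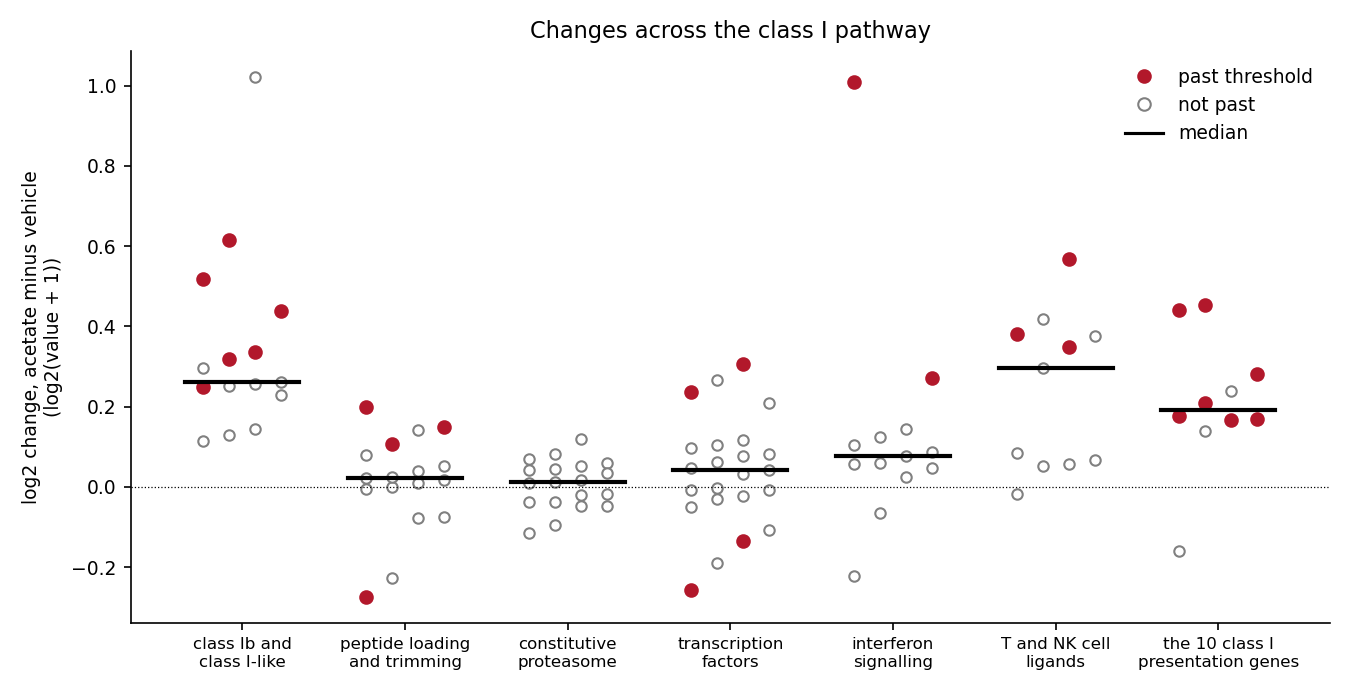
Log2 change of each measured gene in the 6 lists of the pathway and in the 10 class I presentation genes, with filled points past the threshold, open points not past it and a bar at the median of each list. The median is 0.26 for the class Ib and class I-like genes, 0.013 for the constitutive proteasome and 0.19 for the 10 genes.

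The cells carried epithelial markers in every library. All 8 markers of the list were measured, with a summed level of 47146 to 68701 normalised reads in vehicle and 50859 to 71139 in acetate. Of these markers, 3 rose (Krt19, Cldn4 and Cdh1), beside 5.99% of all genes. Of 16 markers of leukocytes, fibroblasts and endothelium, 9 were in the table and 2 of those rose. Their summed level was 255 to 1524 in vehicle and 432 to 2005 in acetate, mostly from Pdgfra, which had a change of 0.52 ± 0.056 (SE, adjusted p 0.000372). Ptprc, which marks all leukocytes, had 0.683 to 3.02 normalised reads in the 8 libraries, and Lyz2 had at most 2.16. Csf1r rose by 1.08 ± 0.20 (SE, adjusted p 0.00774), from a range of 9.55 to 17.9 in vehicle to 21.7 to 35.5 in acetate. The part of Pdgfra and Csf1r in the class I values was not tested.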

How the data were processed

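Poly-A RNA of 8 libraries was sequenced by the study, and its methods and processing notes name stranded libraries, STAR and HTSeq, and build GRCm38, without versions. The deposited signal was normalised: the authors scaled each gene's reads to a library total of 20000000 and kept genes expressed in at least 4 libraries. How multi-mapping reads were treated, and whether strand was used in counting, is not given in the sources used here.

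Every value was a whole multiple of 1 read in its library (100% within 0.1 reads), which gave the depths. In vehicle replicate 3 the worth of a read, 1.0053 units, is close to 1, so whole reads are less sure there and count tests were kept as alternatives. Symbols and gene spans came from GENCODE on GRCm38, and promoters from RefSeq. The test was limma 3.58.1 in R 4.3.3 on log2(value + 1), with the replicate number as a block, two-sided, over 20189 genes. Same-numbered libraries share an experiment code, and their deviations correlated across 18188 genes at 0.814, 0.273, 0.201 and 0.691 for replicates 1 to 4. Differently numbered ones lay between -0.663 and 0.237, so replicates 2 and 3 hardly stand out from those. The study's own gene set ranking was unpaired. edgeR 4.0.16 and DESeq2 1.42.0 on recovered reads, other pseudocounts, filters and scalings, no block and leaving out each pair were alternatives. The fits were also run on simulated counts, and the outcome is not given here.

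The genes, lists and tests were chosen with earlier results of these data known. Named beside the 10 genes were Psmb5, Psmb6, Psmb7, Irf1, Rfx5 and Ciita, up to 3 rises and 3 falls past the threshold with the largest change in each list, and the 5 genes with the most similar pattern. A further gene that was to be named whatever its values is not reported here, and counts over its list include it. Other genes were named after their values were seen.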

Additional observations from a re-analysis of the deposited data

Results flagged for a closer look

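Over the named genes, 76 sets of 4 libraries were searched for a lowest or highest library whose gap to the nearest other was too large a part of the range by Dixon's test, by which chance marks about 1 in 20 sets. Of them, 9 were marked, all for replicate 1. Among the 10 class I presentation genes, replicate 1 was far below in H2-K1 in vehicle (gap over range 0.865, 3293 against 5812 to 6206 normalised reads), in Tapbp in vehicle (0.938, 2060 against 4020 to 4149) and in Tapbp in acetate (0.859, 2394 against 4396 to 4724). It was also low in vehicle for Irf1 (0.883), and in acetate for H2-Q7 (0.927), Stat2 (0.859) and Pml (0.862). Vehicle replicate 1 was far above the other vehicle libraries for the chaperone Calr (0.936, 13872 against 9426 to 9711 normalised reads) and for the constitutive proteasome subunit Psmb7 (0.83, 3718 against 2578 to 2773). The larger fold differences of Tap1, Psmb9, Psmb8 and Tap2 were not marked, since replicates 2 to 4 also spread for these genes.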

How the results depend on the processing

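Each of the 10 genes kept its direction in 12 alternatives, 120 comparisons in all, and stayed on its side of the threshold in 101. Leaving out the block, or genes with a mean under 10 units, does not move the log2 change, so direction could not change there. With the replicate block left out, limma called 0 genes over the whole table, 0 of the 10 genes and 0 of the 98 pathway genes, and edgeR without the block, an alternative chosen after seeing the data, also called 0 of all genes and 0 of the 10. With the block kept, 98 of 110 comparisons stayed on their side. Of all genes, 1744 were called, 1126 with DESeq2, and 409 to 1662 with a pair left out. The genes called higher among the 10 numbered 3 to 7 with a pair left out, and those called lower 0 to 1. Psmb10 made 1 lower call with edgeR and without pair 1. Of the pathway genes, 19 were called, and 6 to 19 with a pair left out, with 9 without pair 2, 6 without pair 3 and 10 without pair 4. The median change of the 10 genes, 0.192, was 0.173 with median-of-ratios scaling, 0.173 with edgeR and 0.172 with DESeq2. Median-of-ratios scaling moved the share of higher genes among all calls from 69.3% to 54.9%, and the median of all genes from 0.018 to 0.0. Tap1 did not pass with quantile scaling (0.22, adjusted p 0.0628) or DESeq2 (0.26, adjusted p 0.131), and its adjusted p ranged from 0.0112 to 0.142 over the alternatives with a block. The causes were not tested. The ratios of proteasome subunits moved by less than their SD in 6 alternatives each, and the share held by replicate number in 3. The motif counts were the same in the 250 bases before the start. Depth limits Tap1 and Psmb9 in replicate 1, where as few as 25 reads stood behind a value.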

Other observations

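Genes around the 34.3 kb stretch of Psmb9, Tap1, Psmb8 and Tap2 were looked at after their values were seen. H2-Ab1, a class II chain, had 6.11 normalised reads in vehicle replicate 1 and a mean of 15.4 in vehicle replicates 2 to 4, and its change with acetate was 1.29 ± 0.20 (SE, limma with the block, adjusted p 0.00311). H2-DMa, which helps load class II molecules, had 42.0 in vehicle replicate 1 and a mean of 87.3 in the other vehicle replicates, with a change of 0.17 ± 0.11 (SE, adjusted p 0.406). Brd2, a bromodomain reader of acetylated histones that lies between H2-K1 and Psmb9, had 8235 in vehicle replicate 1 and a mean of 6670 in the others. Its change was -0.045 ± 0.027 (SE, adjusted p 0.358). On the log2 scale, vehicle replicates 2 to 4 stood above vehicle replicate 1 by 2.29 to 3.10 for the 4 genes of the stretch. The difference was 1.20 for H2-Ab1, 1.11 for Col11a2, 1.04 for H2-DMa and 0.86 for H2-K1. It was 0.54 for Rxrb, 0.43 for Ring1, -0.30 for Brd2 and -0.75 for Slc39a7. H2-Oa (1.53), Gm15321 (1.03), H2-Ke6 (0.64) and CR974462.6 (0.64) had 0 normalised reads in vehicle replicate 1. Their means over all libraries were at most 2.38.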
